A study of Mus musculus with 8 samples.

Results

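TCF1, which is encoded by Tcf7, was examined together with 9 other transcriptional regulators of naive, stem-like and quiescent T cells, namely Lef1, Bach2, Bcl6, Foxo1, Foxp1, Id3, Satb1, Zeb1 and Ikzf1. The 10 genes were taken by name from a table of 47493 genes, and every one of them was among the 12166 genes that passed the filter on low values (mean FPKM of 1 or more over 8 libraries). FPKM scales fragments by transcript length and by the mapped fragments of a library, so levels can be set side by side between genes and libraries. Between libraries with unlike cell mixtures this is only approximate, and a second scaling is therefore also given below.

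RNA came from 4 female C57BL/6 mice, aged 6 to 8 weeks, that carried B16F10 melanoma and were treated by adoptive T-cell therapy. All 4 mice received 200000 tumor cells on day 0, 300 mg/kg cyclophosphamide on day 3, 2000000 Pmel-1 cells on day 5, recombinant human IL-2 at 10000 IU daily for 3 days, and 200 μg of the CD4 antibody GK1.5 weekly for 3 weeks from day 10. Pmel-1 cells are CD8+ T cells with a transgenic receptor against a melanoma antigen, and they bear Thy1.1. On day 25, endogenous CD8+ T cells, which lack Thy1.1, were bead-purified from the inguinal lymph nodes and spleen of each mouse. Cells retained on a second column by an IL-18Rα antibody gave the 4 IL-18Rαhi-enriched libraries, and cells that ran through it gave the 4 flow-through libraries, so both fractions shared the tumor, the transfer, the chemotherapy and the anti-CD4 treatment. The comparison asks how the fractions of each mouse differ, and it does not compare treated with untreated mice.

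TCF1 and its close relative LEF1 bind the same DNA motif through an HMG box and maintain the gene program of naive and long-lived memory CD8+ T cells. FOXO1 and FOXP1 are forkhead factors, SATB1 and IKAROS (Ikzf1) organize chromatin in lymphocytes, and BACH2 and BCL6 are BTB-domain repressors that hold back effector differentiation. ID3 inhibits E proteins, and ZEB1 is a zinc-finger and homeodomain repressor. Effector CD8+ T cells instead raise T-bet (Tbx21), ID2 and BLIMP-1 (Prdm1), which oppose TCF1 and LEF1, ID3, and BACH2 and BCL6.

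The factors did not move as a block. Lef1, Satb1 and Bach2 were lower in the IL-18Rαhi-enriched fraction, by between 1.76 and 2.71 times in mean FPKM, whereas Tcf7 itself stayed the most abundant of the 10 in both fractions and did not pass the test. None of the 10 was called higher in this fit, which did not pair the fractions by mouse. With limma at an adjusted p under 0.05, the count of 3 lower members stood against 13.7% of all tested genes called lower and 14.1% called higher. With the mouse as a block, which pairs the fractions of each animal, 4 members were called lower and 1 (Bcl6) higher. In that fit 22.7% of all tested genes were called lower and 22.2% higher.

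For the 3 genes that were lower together, the 250 bases before the outermost start listed in the RefSeq promoter table (GRCm38.p6) are shown, read 5′ to 3′ on the strand of the gene. Lef1 is at chr3:131110047-131110296 on the plus strand, Satb1 at chr17:51833291-51833540 on the minus strand, and Bach2 at chr4:32417185-32417434 on the plus strand. The Bach2 window belongs to an internal start, since GENCODE M21 places the gene at chr4:32238804-32586108, and the sequence before its first start was not examined here. The Lef1 window overlaps an exon of the antisense gene Gm43352 and the Satb1 window an exon of Gm6934. Capitals mark the core motif of TCF1 and LEF1, CTTTGA or its reverse complement TCAAAG, wherever it occurred on either strand.
Lef1: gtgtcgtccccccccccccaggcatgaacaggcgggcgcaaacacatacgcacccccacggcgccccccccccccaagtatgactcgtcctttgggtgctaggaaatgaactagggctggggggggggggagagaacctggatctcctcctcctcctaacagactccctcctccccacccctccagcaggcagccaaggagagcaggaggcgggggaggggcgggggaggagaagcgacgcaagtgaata
Satb1: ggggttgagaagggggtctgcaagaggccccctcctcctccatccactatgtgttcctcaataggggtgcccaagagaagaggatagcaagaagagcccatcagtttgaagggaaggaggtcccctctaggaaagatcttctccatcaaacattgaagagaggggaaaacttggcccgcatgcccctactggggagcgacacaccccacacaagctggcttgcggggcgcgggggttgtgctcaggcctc
Bach2: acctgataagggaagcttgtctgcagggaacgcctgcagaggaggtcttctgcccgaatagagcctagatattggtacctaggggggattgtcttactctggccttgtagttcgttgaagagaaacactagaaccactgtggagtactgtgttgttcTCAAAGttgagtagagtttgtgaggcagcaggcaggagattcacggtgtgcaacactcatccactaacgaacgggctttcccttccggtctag
In these windows the motif occurred once, in Bach2, 93 bases before its internal start. Of the 9 members with a promoter entry, 1 outermost window held it, and 13.8% of all 32851 promoter windows did. The members had 21 windows in all when every listed start was taken, and 4 of these, 1 each in Lef1, Bach2, Foxp1 and Bcl6, held the TCF and LEF core. GTAAACA, a forkhead motif, and TGAGTCA, an AP-1 site that BACH2 can bind, were in none of the 21 windows and in 3.17% and 4.46% of all windows. TGGGAA, an IKAROS core, was in 1 of the 21 (21.6% of all windows), and CACCTG, an E-box of ZEB1, in 2 (17.2%). A match describes letters in a window, and nothing was measured on binding.

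The label of the sort held in every library. Il18r1, which encodes IL-18Rα, measured 22.2, 37.2, 27.7 and 35.3 FPKM in flow-through replicates 1 to 4 and 110.4, 106.6, 110.3 and 116.0 FPKM in the enriched replicates. The depth estimated from the smallest FPKM steps was 14725000 to 17669000 fragments per library and overlapped between fractions, and the least-covered member (Bcl6 in flow-through replicate 1) rested on about 190 fragments. CD8 T-cell identity genes (Cd3d, Cd3e, Cd3g, Cd247, Cd2, Cd5, Cd8a and Cd8b1) summed to 1163 FPKM in flow-through replicate 1, against 1869 to 2220 in the other flow-through libraries and 2221 to 2384 in the enriched ones. The 7 erythroid progenitor genes were at 887 FPKM in flow-through replicate 1, 211.8 to 439 in the other flow-through libraries and 49.1 to 279 in the enriched ones. Results are therefore also given without flow-through replicate 1, without both libraries of that mouse (chosen after seeing the data), and after T-cell scaling, in which the FPKM of each library were divided by the geometric mean of its 8 identity genes. T-cell scaling moved the median difference of all tested genes from -0.02 to -0.35 on the log2 scale. Before scaling, the 8 identity genes had a median log2 difference of 0.38, with 1 called higher (14.1% of all tested genes) and 0 lower. Without flow-through replicate 1 their median was 0.18. The scaling takes their RNA per T cell as equal in both fractions, which was not tested.

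Tcf7 lies on chr11:52252371-52283014 on the minus strand (GRCm38, GENCODE M21). It measured 201.3, 376.0, 314.1 and 390.4 FPKM in flow-through replicates 1 to 4. In the enriched replicates it measured 279.6, 263.0, 277.0 and 313.3 FPKM. The fractions overlapped, because flow-through replicate 1 held the lowest value of all 8 libraries and the other 3 flow-through libraries lay above every enriched one. The log2 difference of FPKM + 1 (enriched minus flow-through, as for every difference given here) was -0.13 ± 0.20 (SE, n = 4 per fraction), with a limma adjusted p of 0.634 and a 95% interval from -0.58 to 0.31. Within mice, Tcf7 differed by 0.47, -0.51, -0.18 and -0.32, so that it was lower in 3 of 4 mice. Without flow-through replicate 1 the log2 difference was -0.34 and the limma adjusted p 0.0351, and without both libraries of that mouse it was -0.34 with an adjusted p of 0.0584. After T-cell scaling the values were 352 ± 7.21 (SD, n = 4) in flow-through libraries and 249.7 ± 20.5 after enrichment without overlap (30.3% of tested genes were lower without overlap under that scaling), a log2 difference of -0.50 (limma adjusted p = 0.0432), or -0.15 relative to the median of all genes under that scaling. The call on Tcf7 thus depended on 1 library and on the scaling, and Tcf7 RNA remained at 263 FPKM or more in every IL-18Rαhi-enriched library.

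Lef1, the partner of Tcf7 on the same motif, measured 37.9, 73.6, 65.7 and 77.5 FPKM in the flow-through. After enrichment it was at 36.0, 35.6, 37.8 and 35.5 FPKM, a spread of 1.07 FPKM (SD, n = 4). The fractions did not overlap, but flow-through replicate 1 and enriched replicate 3 were separated by less than 0.1 FPKM. The log2 difference was -0.75 ± 0.20 (SE) with a limma adjusted p of 0.0276, and the exact two-sided permutation test over 70 arrangements gave p = 0.0286, the smallest it can give with 4 against 4. Satb1 and Zeb1 had the same permutation p. Lef1 was lower in 4 of 4 mice, by 0.070 in mouse 1 and by 0.78 to 1.10 in the other three on the log2 scale. Lef1 and Satb1 were 2 of 3 members whose fractions did not overlap with the enriched one lower (the other was Zeb1), a pattern seen in 15.9% of tested genes.

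Satb1, a chromatin organizer of T-cell development, had the smallest adjusted p of the 10. It measured 42.4, 73.8, 64.2 and 81.9 FPKM in the 4 flow-through libraries and, after enrichment, 31.1, 35.4, 33.8 and 34.9 FPKM. Every enriched library lay below every flow-through library, and the mean ratio was 1.94. The log2 difference was -0.90 ± 0.18 (SE; limma adjusted p = 0.0095), and Satb1 was the 1 member called under every setting tried, with adjusted p between 0.0004 and 0.0306 over them by limma.

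Bach2, a repressor that restrains effector genes in CD8+ T cells, had the largest log2 difference of the 10 members and the lowest level in the enriched fraction. It measured 3.18, 7.80, 7.67 and 12.2 FPKM without enrichment and 1.48, 3.42, 2.79 and 3.69 FPKM with it. Flow-through replicate 1 lay inside the enriched range, so the fractions overlapped, although Bach2 was lower in 4 of 4 mice by 0.75 to 1.49 on the log2 scale. The log2 difference was -1.11 ± 0.35 (SE) with a limma adjusted p of 0.0439. The exact permutation test on the single gene, which does not pair the fractions by mouse, gave p = 0.0857.

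With the mouse as a block, limma adjusted p was 0.0120 for Lef1 and 0.0013 for Bach2. In the fit without a block, both calls were close to the threshold. Leaving out any 1 of the 7 libraries other than flow-through replicate 1 put limma adjusted p at 0.0555 to 0.0750 for Lef1 and at 0.0661 to 0.1040 for Bach2, and Satb1 was then the 1 member called lower. Over all tested genes the calls lower were 14.6%, 7.73% and 11.9% without flow-through replicates 2, 3 and 4, and 11.0%, 7.86%, 9.18% and 8.00% without enriched replicates 1 to 4. Without a filter on low values, where limma called 5.63% of 22789 genes lower, Satb1 was also the 1 member called. Without flow-through replicate 1 there were 5 members called lower (13.1% of all tested genes), namely Lef1, Satb1, Bach2, Foxp1 and Tcf7, with log2 differences of -0.97 for Lef1, -1.09 for Satb1 and -1.42 for Bach2. T-cell scaling, under which the median difference of all tested genes was -0.35, called the same 5 lower (9.04% of all tested genes).

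**Figure D1:**
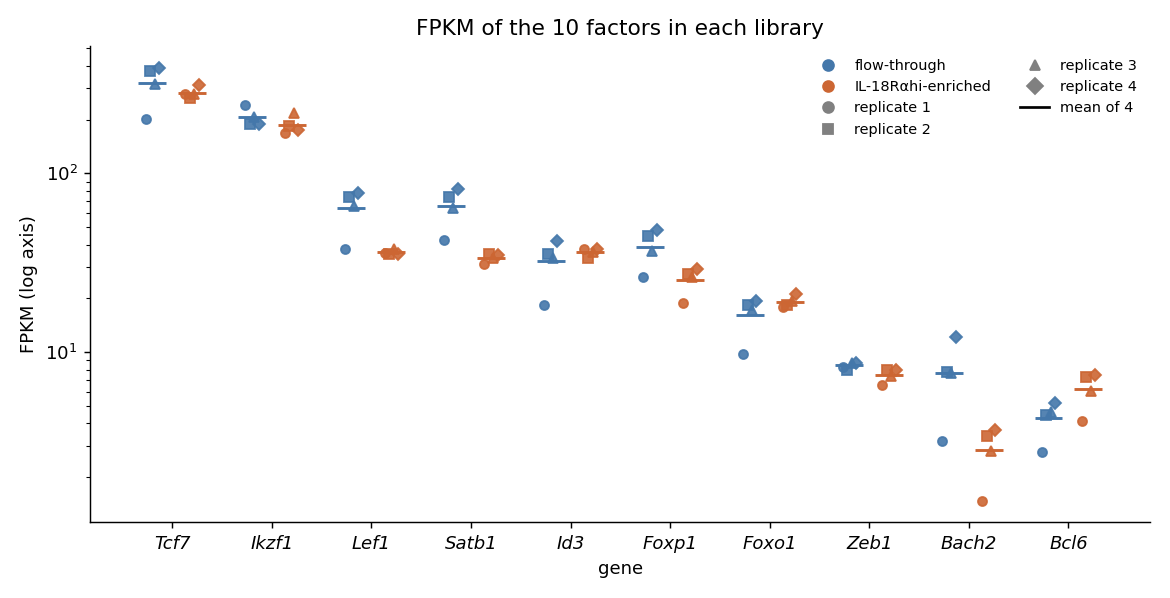
FPKM of the 10 factors (log axis) in each library, ordered by mean level, with flow-through in blue, IL-18Rαhi-enriched in orange, a symbol for each mouse and a line at the mean of 4. Flow-through replicate 1 (blue circle) is the lowest flow-through library for 8 of the 10 genes, and the enriched libraries of Lef1 sit together between 35.5 and 37.8 FPKM.

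Foxp1, a forkhead factor that supports quiescence of naive T cells, followed the same direction without reaching the threshold. It was at 26.3, 44.7, 36.7 and 48.1 FPKM among flow-through libraries and was at 18.8, 27.5, 26.5 and 29.2 FPKM among enriched ones. The fractions overlapped through flow-through replicate 1, while within each mouse the enriched library was lower by 0.46 to 0.70 on the log2 scale. The limma adjusted p was 0.0658 for a log2 difference of -0.58 ± 0.20 (SE), and it was 0.0016 with the mouse as a block and 0.0125 without flow-through replicate 1. Being lower in 4 of 4 mice was shared by 30.6% of tested genes.

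Foxo1, the other forkhead member and an activator of Tcf7 and Il7r in naive T cells, did not follow Foxp1. It measured 9.80, 18.4, 17.2 and 19.4 FPKM in the flow-through against 17.97, 18.3, 19.4 and 21.04 FPKM after enrichment. Apart from flow-through replicate 1, all libraries lay between 17.2 and 21.04 FPKM. The log2 difference was 0.27 ± 0.19 (SE; limma adjusted p = 0.317), 0.060 without flow-through replicate 1 and -0.072 after T-cell scaling, so its sign was not fixed.

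Id3 behaved in the same way. It was at 18.4, 35.3, 33.6 and 41.7 FPKM in the flow-through, while the enriched libraries had 37.7, 33.8, 36.4 and 37.9 FPKM, with enriched values higher in 2 mice and lower in 2. Its log2 difference of 0.23 ± 0.22 (SE; limma adjusted p = 0.457) became -0.010 without flow-through replicate 1 and -0.12 after T-cell scaling.

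Bcl6 was the 1 member with higher values in the enriched library of every mouse, a direction shared by 29.2% of tested genes. It measured 2.79, 4.48, 4.65 and 5.24 FPKM in the flow-through, and the enriched libraries had 4.11, 7.26, 6.07 and 7.49 FPKM, where the library of mouse 1 was again the lowest of each. The within-mouse differences were 0.43, 0.59, 0.32 and 0.45. The log2 difference of 0.45 ± 0.21 (SE) did not pass across libraries (limma adjusted p = 0.136) and passed with the mouse as a block (adjusted p = 0.0071, with 22.2% of tested genes called higher in that fit). It was 0.15 after T-cell scaling (adjusted p = 0.551), or 0.50 relative to the median of all genes.

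Zeb1 and Ikzf1 did not pass by limma, while the exact permutation test on the single gene gave p = 0.0286 for Zeb1 and 0.257 for Ikzf1. Zeb1 was at 8.30, 7.99, 8.75 and 8.70 FPKM in the flow-through, against 6.59, 7.96, 7.35 and 7.98 FPKM after enrichment, which did not overlap, but the log2 difference was -0.16 ± 0.08 (SE; limma adjusted p = 0.190). Ikzf1, at 240.6, 189.3, 206.6 and 188.1 against 168.2, 184.5, 216.4 and 174.1 FPKM, overlapped and differed by -0.15 ± 0.11 (SE; adjusted p = 0.340). After T-cell scaling the differences were -0.49 for Zeb1 (limma adjusted p = 0.124) and -0.51 for Ikzf1 (0.189), or -0.14 and -0.17 relative to the median of all genes, and without flow-through replicate 1 Ikzf1 was at -0.073. For Ikzf1, flow-through replicate 1 was the highest library, in contrast to Tcf7, Lef1, Satb1, Bach2, Foxp1, Foxo1, Id3 and Bcl6, for which it was the lowest flow-through library.

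**Figure D2:**
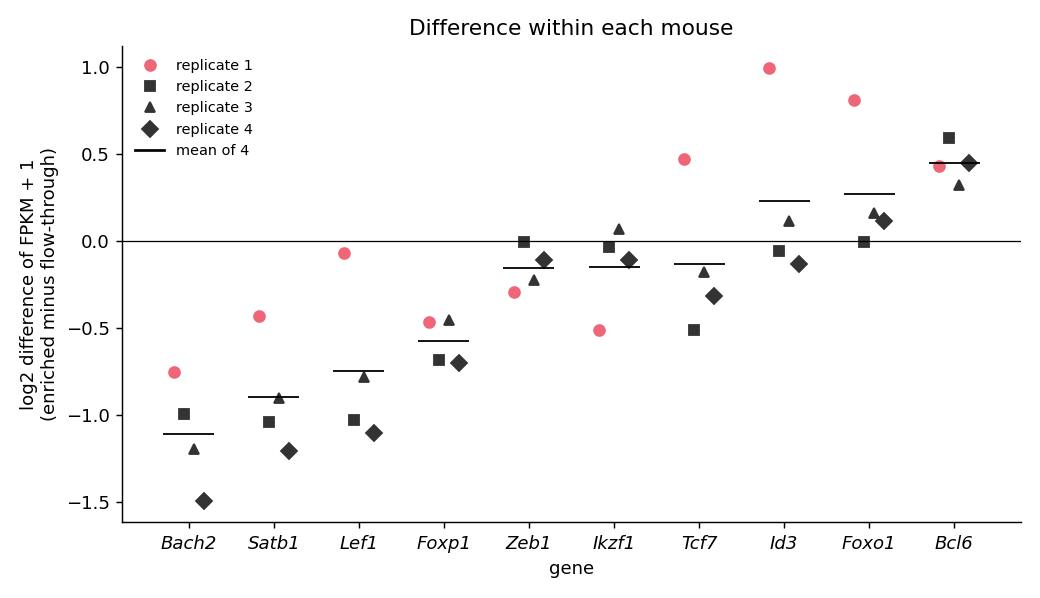
Log2 difference of FPKM + 1 between the enriched and the flow-through library of each of 4 mice, with a line at the mean. Mouse 1 (red circle) lies above the other mice for Bach2, Satb1, Lef1, Tcf7, Id3 and Foxo1, and below them for Zeb1 and Ikzf1.

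With the mouse as a block, which uses the fact that both fractions came from the same animal, 4 members were called lower (Lef1, Satb1, Bach2 and Foxp1) and Bcl6 was called higher, while limma called 22.7% of all tested genes lower in that fit. Tcf7 did not pass (limma adjusted p = 0.507). Without both libraries of mouse 1 the calls were also Lef1, Satb1, Bach2 and Foxp1 lower and Bcl6 higher, in 3 against 3 libraries, beside 12.8% of tested genes lower and 14.7% higher. Leaving out enriched replicate 1 alone also put Bcl6 past the threshold (log2 difference 0.61, limma adjusted p = 0.0475, with 12.8% of genes called higher). The median log2 difference of the 10 members was -0.15 beside -0.02 over all genes, -0.25 without flow-through replicate 1 and -0.51 after T-cell scaling, where the median of all genes was -0.35.

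**Figure D3:**
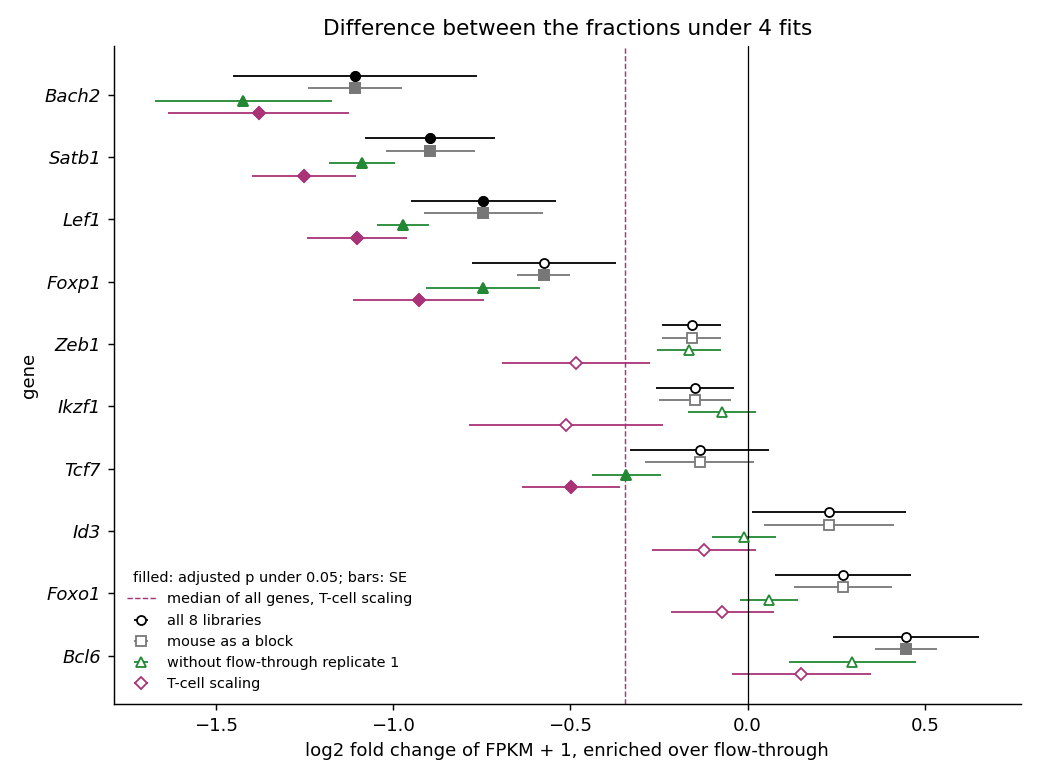
Log2 fold change of FPKM + 1 (enriched over flow-through) of each factor with its SE in 4 fits of limma, filled where the adjusted p was under 0.05. Bach2, Satb1 and Lef1 are filled in all 4, Tcf7 in 2, and the dashed line marks the median of all genes under T-cell scaling at -0.35.

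In mean FPKM, Satb1, Lef1 and Foxp1 stood above Id3 in the flow-through and level with or below it after enrichment. Bach2 likewise moved below Bcl6. In the flow-through, mean FPKM fell from Tcf7 (320.5) over Ikzf1 (206.2), Satb1 (65.5), Lef1 (63.7), Foxp1 (39.0), Id3 (32.2), Foxo1 (16.2), Zeb1 (8.44) and Bach2 (7.71) to Bcl6 (4.29). Ranges of neighbors in that order overlapped across libraries, except Ikzf1 and Satb1, and Foxo1 and Zeb1. Within libraries, Lef1 over Foxp1, Foxp1 over Id3, Id3 over Foxo1 and Bach2 over Bcl6 held in all 4. Satb1 over Lef1 and Zeb1 over Bach2 held in 3. In the enriched fraction Id3 stood behind Tcf7 and Ikzf1 at 36.5 FPKM, level with Lef1 (36.2) within their spread. Satb1 (33.8) and Foxp1 (25.5) followed, and Bach2 was last at 2.84, below Bcl6 (6.23). The order of Tcf7 above Ikzf1 held in 3 of 4 flow-through libraries and in all 4 enriched ones.

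Against their effector counterparts, 5 of 6 pairs shifted in every mouse. The counterparts Tbx21, Prdm1 and Id2 were each called higher on their own. A gene that did not differ between fractions could therefore also give a lower ratio against them. The share of all genes that would do so was not computed, so the count of pairs is not a result about the members alone. Tbx21 and Prdm1 served in more than 1 pair, so the pairs are not independent results. A ratio of 2 genes within a library does not depend on how the library was scaled, apart from the pseudocount, and it was tested by an exact two-sided permutation test on the log2 ratio of FPKM + 1 over 70 arrangements, where 0.0286 is the smallest p possible. The FPKM ratio of Tcf7 to Tbx21 (T-bet, the factor of type 1 effector cells) was 18.5, 20.2, 20.1 and 20.7 in the flow-through. It was 4.56, 5.29, 5.54 and 6.06 in the enriched libraries. Flow-through replicate 1 lay close to its group on this measure, unlike its Tcf7 level alone. The log2 ratio differed by -1.83 (exact permutation p = 0.0286), of which Tbx21 accounted for 1.70, since it measured 10.9 to 18.9 FPKM without and 49.7 to 61.3 with enrichment, and Tcf7 for 0.13.

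For Lef1 to Tbx21 the FPKM ratio was 3.93 ± 0.314 (SD, n = 4) without and 0.687 ± 0.072 with enrichment, a difference of -2.44 in the log2 ratio. Id3 to Id2 went from 0.310 ± 0.028 to 0.118 ± 0.008 (log2 difference -1.40). Id3 alone differed by 0.23 and did not pass the test, so the fall of this ratio lay in Id2. Bach2 to Prdm1, a pair of opposed repressors, went from 3.20 ± 0.811 to 0.435 ± 0.114, so that Prdm1 was the lower of the pair in every flow-through library and the higher in every enriched one (log2 difference -2.29). Bcl6 to Prdm1 went from 1.90 ± 0.322 to 0.963 ± 0.147, a log2 difference of -0.73 that lay in Prdm1, in spite of the higher Bcl6 values. For each of these the exact permutation p was 0.0286 (0.0343 after Benjamini-Hochberg adjustment over the 6 pairs), and the ratio was lower in 4 of 4 mice. An exact sign-flip test within the 4 mice cannot go below p = 0.125 and gave that value. Zeb1 to Zeb2, the pair of ZEB proteins, was 0.999 ± 0.147 and 1.05 ± 0.221, overlapped, and gave an exact permutation p of 0.657.

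**Figure D4:**
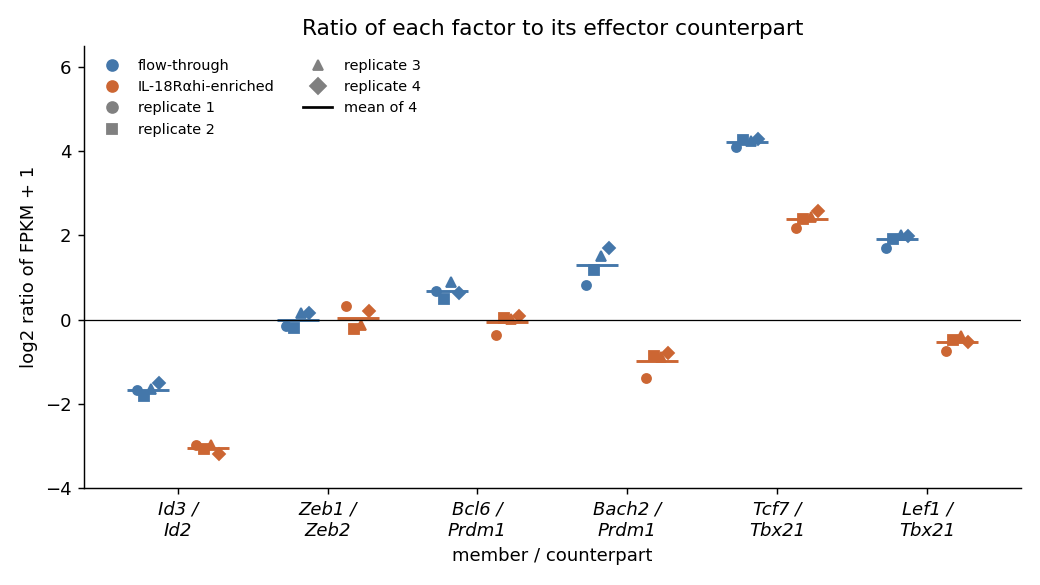
Log2 ratio of FPKM + 1 between each factor and its effector counterpart in every library, with a line at the mean of 4. The fractions are apart for all pairs except Zeb1 to Zeb2, and the ratio of Tcf7 to Tbx21 lies between 4.09 and 4.30 in the flow-through and between 2.17 and 2.58 in enriched libraries.

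The effector factors around these pairs were higher: 8 of 10 passed the test as higher (14.1% of all tested genes) and none as lower, with a median log2 difference of 1.08. This list and those below were chosen with earlier results of these data known. Tbx21 rose by 1.70, Id2, an E-protein inhibitor of effector cells, by 1.63, Bhlhe40 by 1.34, Prdm1 by 1.18, Irf4 by 1.10, Batf by 1.05, Nfil3 by 0.88 and Runx3 by 0.56, each without overlap between fractions, as were 16.4% of tested genes in that direction (limma adjusted p from 0.0007 to 0.0231). Eomes, the relative of T-bet in memory cells, measured 13.5 ± 2.56 FPKM without and 14.2 ± 0.554 with enrichment (SD, n = 4), and its log2 difference of 0.08 did not pass (limma adjusted p = 0.659). Zeb2, at -0.21, did not pass either (adjusted p = 0.379). After T-cell scaling 6 of the 10 were called higher, Runx3 (0.21) and Nfil3 (0.62) were not, and Eomes turned to -0.25.

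Of 15 genes known to depend on TCF1, LEF1, FOXO1 or the naive state, also listed with earlier results known, 5 were called lower and none higher, with a median of -0.31. Over all tested genes, 13.7% were called lower and 14.1% higher. Igfbp4 fell by 1.82, Ccr7, the lymph node homing receptor, by 1.27, Dapl1 by 1.19, Treml2 by 0.98 and Actn1 by 0.66 on the log2 scale, all without overlap (limma adjusted p from 0.0020 to 0.0326). Of all tested genes, 15.9% were lower without overlap. Dapl1 was at 84.4 to 146.0 FPKM across flow-through libraries and at 52.6 to 54.5 across enriched ones. Ltb, which encodes lymphotoxin β, measured 265.5 ± 61.4 and 270.2 ± 16.8 FPKM. The FOXO1 targets Il7r, S1pr1 and Klf2 had log2 differences of 0.17, 0.17 and 0.21 with adjusted p of 0.552 or more, beside that of Foxo1 itself, and turned to -0.19, -0.19 and -0.16 after T-cell scaling. Without flow-through replicate 1, and after T-cell scaling, 9 of the 15 were called lower (13.1% and 9.04% of all tested genes).

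Among paralogs of the 10 factors, 12 of 19 passed the filter, 4 were higher and 1 lower, beside 14.1% higher and 13.7% lower over all tested genes. Foxp3, the factor of regulatory T cells, was at 1.12, 2.71, 2.23 and 4.40 FPKM in the flow-through, compared with 5.86, 11.7, 9.98 and 19.0 FPKM after enrichment, a log2 difference of 1.78 (limma adjusted p = 0.0092). Foxp4 (0.51), Id2 (1.63) and Ikzf3, which encodes AIOLOS (0.95), were also called higher, so that the members Foxp1, Id3 and Ikzf1 each had a paralog that rose while they themselves did not. Foxo3 fell by 0.34 (limma adjusted p = 0.0436). After T-cell scaling Foxp4 and Foxo3 were not called. Ikzf2 (0.81), Ikzf4 (0.54), Ikzf5 (-0.24), Id1 (0.35), Bach1 (-0.14), Foxo4 (0.01) and Zeb2 (-0.21) did not pass. With the mouse as a block, Ikzf2 (limma adjusted p = 0.0006) and Ikzf4 (0.0381) were called higher as well. The TCF family members Tcf7l1 and Tcf7l2 averaged less than 1 FPKM in either fraction, so that Tcf7 and Lef1 were the 2 genes of that family that passed the filter.

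Of 30 partner and control genes, 29 were tested, 5 were higher, 4 lower, and the median was 0.08, beside 14.1% higher and 13.7% lower over all tested genes, so the shares were close to the background. TCF1 and LEF1 recruit corepressors of the Groucho family, of which Tle3 rose by 0.62 (limma adjusted p = 0.0208) and Tle1 fell by 0.56. Aes, which encodes the related TLE5, rose by 0.32. Jup, which encodes γ-catenin, rose by 0.61 at about 1 to 3 FPKM, whereas Ctnnb1, which encodes β-catenin, measured 100.5 ± 11.3 and 94.8 ± 3.36 FPKM (adjusted p = 0.549). Ncor1, a corepressor of BCL6, rose by 0.31. Ctbp2, a corepressor of ZEB1, fell by 0.90 (adjusted p = 0.0055), Mafk, a partner of BACH2, fell by 0.39, and Hdac2 of the NuRD complex, which IKAROS joins, fell by 0.34. Ctbp1 and Mta2 did not pass, with log2 differences of -0.20 and 0.08. None of the 5 higher partners was called after T-cell scaling, where Aes and Ncor1 turned to -0.040 and -0.050 and Ctbp2 was the 1 partner called.

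In the quiescence list, 2 of 10 tested genes were higher and none lower, with a median of 0.04. The shares over all tested genes were 14.1% higher and 13.7% lower. Ndfip1, an adaptor of ubiquitin ligases, rose by 0.79 (limma adjusted p = 0.0051), and after T-cell scaling it was not called. Btg1 and Slfn2 had differences of -0.22 and 0.42 and did not pass, although Slfn2 did with the mouse as a block (adjusted p = 0.0466). After T-cell scaling none of the 10 was called higher and the median was -0.31, and Peli1, a ubiquitin ligase, was called lower (-0.74, limma adjusted p = 0.0215), as it was without flow-through replicate 1 (-0.61, 0.0108). In the list of stem-like CD8+ T-cell genes, 1 of 6 passed, and the median was 0.30. Myb, a factor of stem-like T cells and of blood progenitors, fell from 82.9 ± 5.17 to 26.8 ± 5.23 FPKM (SD, n = 4; log2 difference -1.61, limma adjusted p = 0.0003), and the other 5, Slamf6 (0.53), Xcl1 (1.11), Tox (0.44), Il7r (0.17) and Cxcr5 (-0.39), did not. With the mouse as a block, where 22.2% of all tested genes were called higher and 22.7% lower, Slamf6, Xcl1 and Tox were called higher and Cxcr5 lower. After T-cell scaling, Slamf6, Xcl1 and Tox had differences of 0.18, 0.76 and 0.11 and were not called.

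**Figure D5:**
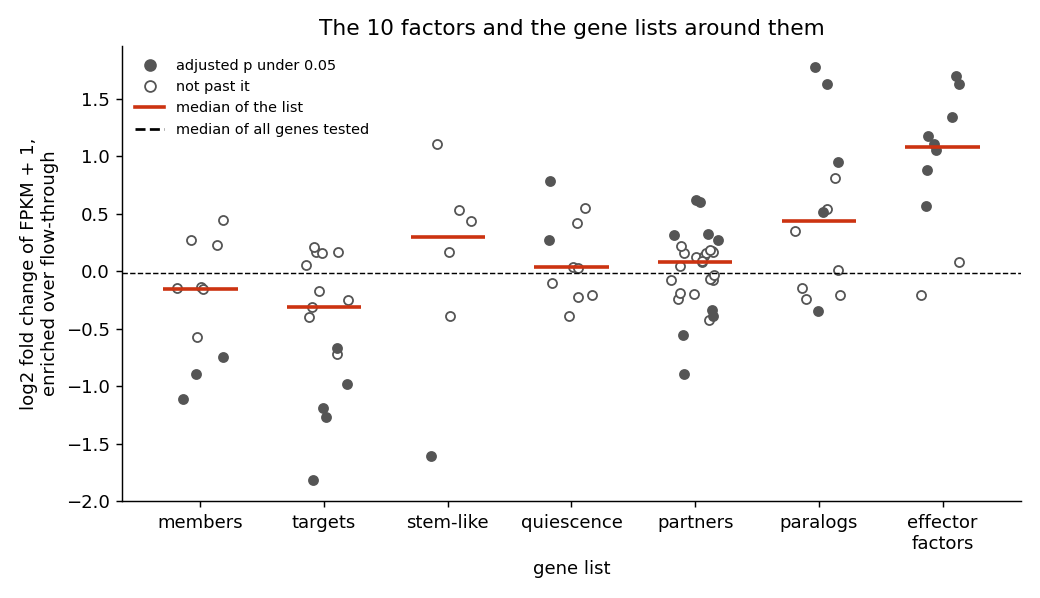
Log2 fold change of FPKM + 1 of each tested gene in the 10 factors and 6 lists, filled where the limma adjusted p was under 0.05, with the median of each list in red and that of all genes dashed. The effector factors have a median of 1.08, and the target list one of -0.31.

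Marker genes of other cell types also moved between the fractions, and in bulk RNA fewer cells of a type cannot be told apart from less RNA per cell. All 5 tested NK-cell genes were higher in the enriched fraction (summed FPKM 3.39 to 10.9 without and 21.9 to 73.8 with enrichment), as were both CD4 T-cell genes (8.39 to 12.2 and 21.3 to 34.7) and 4 of 8 myeloid genes (140.6 to 530 and 451 to 1551). The authors reported Ncr1 and Klrb1c, which are on the NK-cell list, as genes that activated T cells can also raise. Of the 6 tested B-cell genes 1 was higher, at sums of 26.2 to 68.4 and 41.2 to 84.1. Of 6 gamma-delta T-cell genes 2 were higher, as were 1 of 2 regulatory T-cell genes and the 1 tested gene of invariant NKT and MAIT cells. Of 3 tested plasmacytoid dendritic cell genes 1 was higher and 1 lower. Over all tested genes, 14.1% were higher and 13.7% lower. Of 7 erythroid progenitor genes 4 were lower, and of 4 hematopoietic progenitor genes 3 were lower, at 311 to 1470 and 224 to 1211 FPKM. These counts are from the fit without a block. With the mouse as a block, 7 of 7 erythroid progenitor and 4 of 4 hematopoietic progenitor genes were called lower. In that fit 6 of 8 myeloid, 5 of 6 gamma-delta T-cell and 2 of 2 regulatory T-cell genes were higher and 0 lower. Over all tested genes it called 22.2% higher and 22.7% lower. Of the melanoma genes, Mlana, Tyr, Dct and Tyrp1 had FPKM of 0 in each of the 8 libraries. The part of these cells in the differences of Lef1, Satb1, Bach2, Myb and Foxp3 was not tested.

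Genes whose levels most resembled each factor are given as a description over the same 8 libraries, by Pearson correlation of log2(FPKM + 1) among the 9329 genes whose mean FPKM was 5 or more. For Tcf7 they were Rras2 (r = 0.989), Dusp10 (0.987), Gimap3 (0.985), Fam169b (0.980) and Stk38 (0.979). Lef1 was most like Actn1 (0.993) and Tbxa2r (0.992), Satb1 like Fam101b (0.995) and Fam60a (0.990), Bach2 like Tgif1 (0.995) and A230050P20Rik (0.987), and Foxp1 like Atp1b1 (0.989) and Ankzf1 (0.985). Foxo1 was most like Stk17b (0.996) and Gpr18 (0.991), Id3 like Prkd2 (0.988) and the T-cell receptor chain gene Cd247 (0.987), and Bcl6 like Rnf169 (0.994) and Ccnd1 (0.990). Zeb1 was most like Ccdc9 (0.966) and Alg5 (0.966), and Ikzf1 like Mphosph9 (0.972) and 2700062C07Rik (0.969). Each of these correlations includes flow-through replicate 1, with its low T-cell RNA.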

How the data were processed

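RNA-seq was performed on 8 libraries, a flow-through and an IL-18Rαhi-enriched one from each of 4 mice, grouped and numbered as labeled. The authors deposited FPKM: polyadenylated RNA was sequenced from stranded libraries as paired ends, low-quality reads were removed, and the others were aligned to mm10 with TopHat and quantified with Cufflinks 2.1.1, corrected for multi-mapped reads and fragment bias. Strand was not used at the default setting, and the annotation release is not given in the sources used here, so levels of overlapping antisense genes and of close paralogs are uncertain. Depth was estimated from the FPKM steps of low genes and no count model was applied. Coordinates were taken from RefSeq (GRCm38.p6) for promoters and GENCODE M21 for genes, and 99.1% of gene identifiers were found in the latter.

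Differences were tested by limma 3.58.1 in R 4.3.3 with a variance trend on log2(FPKM + 1), for the 12166 genes whose mean FPKM was 1 or more, without a block for the mouse. P-values were Benjamini-Hochberg adjusted over all these genes, with a threshold of 0.05. Such fold changes understate those of low genes. Alternatives were a pseudocount of 0.1, no filter, a filter at 5 FPKM, upper-quartile and T-cell scaling, the mouse as a block, and leaving out each library. Within mice, deviations of the fractions from their group means correlated with r of 0.660, 0.589, 0.308 and 0.471, and since each mouse gave both fractions the block is a true pairing. The method was tested on simulated data. Members and lists were chosen with earlier results of these data known. Named genes were all members, all tested effector factors and paralogs, and in other lists up to 4 called genes per direction by fold change and 2 uncalled by level, to which Actn1, Ctnnb1, S1pr1, Klf2, Il7r, Xcl1, Tox, Cxcr5 and Peli1 were added after their values were seen. Marker genes served to describe the cell mixture. List counts and medians include genes whose own values are not reported here.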

Additional observations from a re-analysis of the deposited data

Results flagged for a closer look

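Within the enriched fraction, replicate 1 stood apart from the other 3 libraries in the log2 ratio of FPKM + 1 for 2 pairs. For Bcl6 to Prdm1 it was at -0.35, whereas the others lay between 0.02 and 0.08. For Bach2 to Prdm1 it was at -1.39, with the others between -0.88 and -0.78. Its Prdm1 level was also the lowest of the enriched libraries, at 5.52 FPKM against 5.99 to 7.06, as were its Bach2 and Bcl6 levels. A gap of this kind was looked for in 32 sets of 4 libraries, of which about 1.6 would be marked by chance. The cause was not tested.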

How the results depend on the processing

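Satb1 was called lower under every alternative. Without a filter, 1 member was called lower, and Lef1 (-0.75, limma adjusted p = 0.0556) and Bach2 (-1.11, 0.0889) did not pass, with 5 partner and 1 quiescence calls. T-cell scaling gave 5 lower members, 508 genes higher and 1100 lower in all (31.6% of calls higher, against 50.8%), partner 1, target 9, quiescence 1 (Peli1, lower), stem-like 2 and paralog 3 calls, and differences of -0.50 for Tcf7, -0.93 for Foxp1, -0.072 for Foxo1 and -0.12 for Id3. The mouse as a block gave 1 higher member (Bcl6, 0.45), Foxp1 (-0.58) past the threshold, 2705 genes higher and 2763 lower, quiescence 5 and stem-like 5 calls, and changed no other member's call. Under the within-mouse sign-flip pairing the log2 ratios, -1.40 for Id3/Id2, -0.73 for Bcl6/Prdm1, -2.29 for Bach2/Prdm1, -1.83 for Tcf7/Tbx21 and -2.44 for Lef1/Tbx21, cannot pass. Without both libraries of mouse 1 (replicate 1), 1 member was higher (Bcl6, 0.45), Foxp1 was at -0.61, Id3 at -0.026, target calls were 9 and stem-like 3. Leaving out single libraries gave 1 to 5 lower and 0 to 1 higher members, 1124 to 1802 genes higher and 940 to 1781 lower, 3 to 8 partner, 4 to 9 target, 1 to 2 quiescence, 1 to 3 stem-like, 7 to 8 effector factor and 4 to 5 paralog calls. Over these, differences ranged from -0.34 to -0.025 for Tcf7, -0.97 to -0.64 for Lef1, -1.42 to -0.87 for Bach2, -0.75 to -0.44 for Foxp1 and 0.30 to 0.61 for Bcl6, and for Id3 from -0.010 (without flow-through replicate 1) to 0.37, and the Zeb1/Zeb2 ratio ranged from -0.045 to 0.14, with -0.011 and -0.0021 below 0. The cause of these shifts was not tested. Depth was estimated and not given, so no counting interval was set.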
